A study of Mus musculus with 4 samples.

Results

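The Siglec and Cd300 receptors described here are 7 genes, Siglece, Cd33, Cd22, Siglec1, Cd300a, Cd300lb and Cd300lf, of 18193 genes named on the arrays, and 11 of the 45037 probe sets read them. They were taken by their symbol in the platform annotation. Siglece and Cd300lb were chosen for their rise in Icsbp-deficient cells, so their values are a description without a test. Of the 11 probe sets, 9 are on both array types used. The probe set of Cd300lb and a second probe set of Cd300a are on the larger type only, where each genotype has a single array.

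The cells were granulocyte/monocyte progenitors (GMP), bone marrow cells sorted by flow cytometry that give rise to neutrophils and monocytes. The comparison asks how GMP differ in mice deficient in Icsbp, also called Irf8, an interferon regulatory factor that steers progenitors between the monocyte and granulocyte fates. Each genotype was hybridised to 1 Affymetrix 430A array and 1 larger MOE430_2 array, with marrow pooled from no fewer than 10 mice for a wild type preparation and 8 for a deficient one, aged 10 to 16 weeks. The wild type 430A sample carries no genotype in its own label, which names a mixed C57/Bl6 - S129Ola background, and was assigned through the series' design text. The strain of the other mice and the kind of Icsbp allele are not stated in the labels. A further Icsbp-deficient preparation named in the design text is not analysed here.

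Siglecs are surface receptors of the immunoglobulin superfamily that bind sialic acids, the sugars that cap many glycans of the body's own cells. Most carry tyrosine motifs in the cytoplasmic tail that recruit the phosphatases Ptpn6 and Ptpn11 and dampen activation. The Cd300 receptors bind lipids, such as those exposed on dying cells, and include inhibitory and activating members. Activating members signal through adaptors such as Tyrobp, which passes the signal to the kinase Syk. Both families are best known on mature myeloid cells, and Cd22 on B cells.

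Signals below are scaled so that every array has the same trimmed mean of 500, in arbitrary units. A log2 ratio is Icsbp-deficient over wild type within an array type after an offset of 50 was added, which understates changes at low signal, and ± is limma's moderated standard error of the mean of n = 2 ratios. Signals of different probe sets, or of the same one on different array types, are not comparable as levels. As deposited, the 430A arrays had trimmed means of 498.5 (wild type) and 167.1 (Icsbp-deficient), and the MOE430_2 arrays 160.4 and 158.6. The granule protein genes of GMP, Mpo, Elane, Prtn3 and Ctsg, had their lowest signal at 13745. The targeted gene Irf8 gave signal in both genotypes: its probe sets had mean log2 ratios of -0.48 (limma adjusted p = 0.124) and 0.06 (adjusted p = 0.832). The first probe set differed in size between the array types, with ratios of -0.13 by 430A and -0.83 by MOE430_2. Which part of the gene is deleted is not stated in the labels, so these ratios do not check the labels.

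Siglece, which encodes an inhibitory Siglec of neutrophils and other myeloid cells, was far higher in Icsbp-deficient GMP on both array types. Among the 430A arrays, wild type GMP read 20.7 and Icsbp-deficient GMP 371.0. Among the MOE430_2 arrays, the signals were 10.6 and 206.5. Both wild type signals lay below the offset and both Icsbp-deficient signals well above it. No detection calls were used, so whether the wild type signals stood above background is not known. The scaled signals differed by 18.0-fold and 19.5-fold, and the log2 ratios with the offset were 2.58 and 2.11, a mean of 2.35 ± 0.23 or 5.09-fold. The mean was 3.26 with an offset of 16 and 1.62 with the offset of 50 added to the values as deposited. By its mean ratio Siglece ranked 6 among the rises of 13576 tested probe sets. Its mean signal passed the filter on low signals only through the Icsbp-deficient arrays, and with a filter at the 60th percentile it was not tested.

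Cd300lb, an activating Cd300 receptor that couples to Tyrobp, was also higher on the array type that carries it. Its MOE430_2 signal was 334.4 for wild type and 1717 for Icsbp-deficient GMP. Unlike for Siglece, the wild type signal too lay far above the offset. The scaled signals differed by 5.14-fold, and the log2 ratio with the offset was 2.22, or 4.65-fold. This ratio has no replicate, and it ranked 3 among the rises of the 22411 probe sets on this array type only. Of those probe sets 0.651% were at least 2-fold higher and 0.576% at least 2-fold lower. Under 5 other offset and normalization settings the ratio of Cd300lb lay between 1.95 and 2.38.

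**Figure D1:**
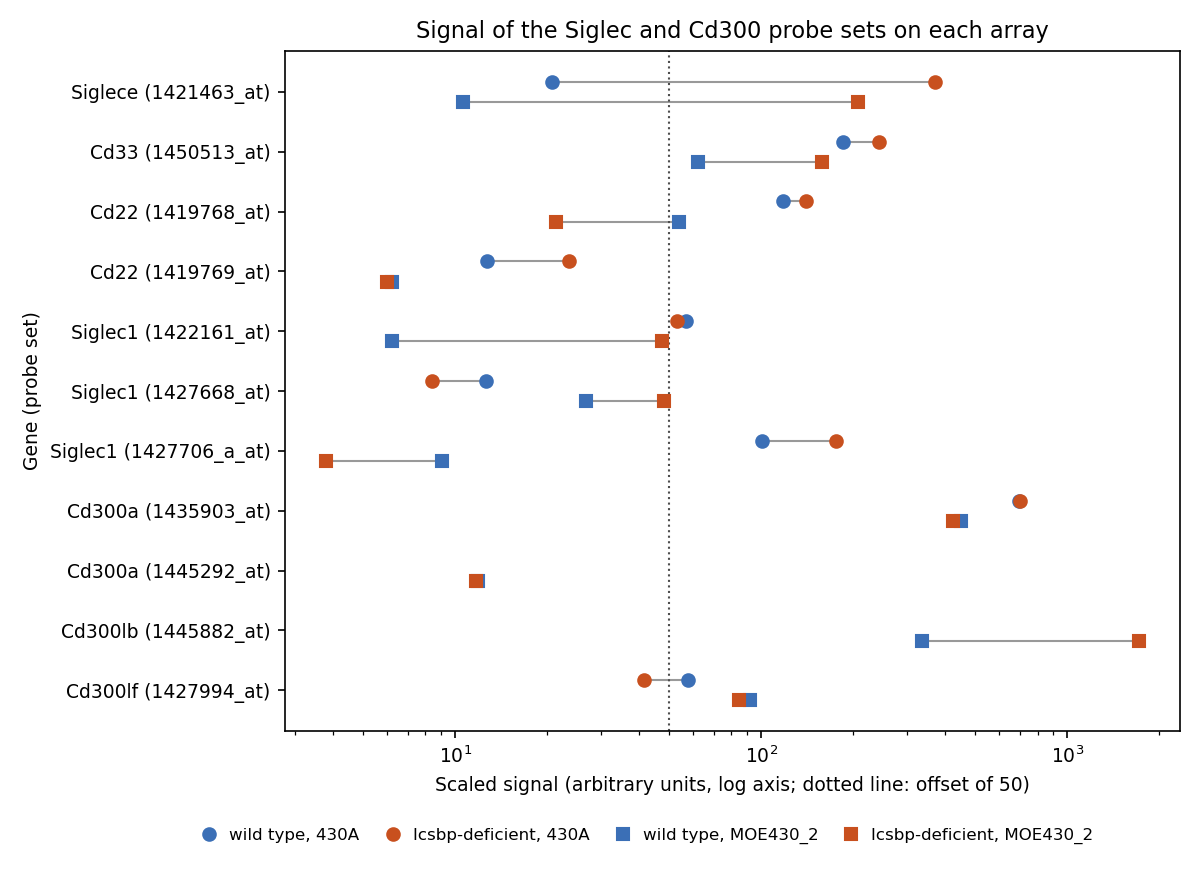
Scaled signal (arbitrary units, log axis) of each of the 11 probe sets on each array; circles are 430A and squares MOE430_2 arrays, blue is wild type, orange is Icsbp-deficient GMP, grey lines join the 2 arrays of a type, and the dotted line is the offset of 50. Siglece goes from 20.7 to 371.0 and from 10.6 to 206.5, Cd300lb from 334.4 to 1717 on the larger array, and the points of Cd300a nearly coincide within each array type.

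Upstream sequences are shown for the genes chosen for their rise and for Cd300a, the gene next to Cd300lb on chromosome 11. RefSeq starts of assembly GRCm38.p6 were matched for 6 of the 7 genes. The windows hold the 250 bases before the start, 5′ to 3′ on the gene's own strand. That of Siglece is chr7:43660162-43660411 (minus strand), that of Cd300lb chr11:114934372-114934621 (minus strand) and that of Cd300a chr11:114889791-114890040 (plus strand). Capitals mark matches, on either strand, to a PU.1 core (GAGGAA, or TTCCTC on the other strand) or to a C/EBP core (TTGCNNAA).
Siglece: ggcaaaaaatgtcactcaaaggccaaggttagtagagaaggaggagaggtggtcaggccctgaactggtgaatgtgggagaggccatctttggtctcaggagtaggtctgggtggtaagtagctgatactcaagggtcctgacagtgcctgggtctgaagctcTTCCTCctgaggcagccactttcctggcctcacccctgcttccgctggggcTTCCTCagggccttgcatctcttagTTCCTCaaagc
Cd300lb: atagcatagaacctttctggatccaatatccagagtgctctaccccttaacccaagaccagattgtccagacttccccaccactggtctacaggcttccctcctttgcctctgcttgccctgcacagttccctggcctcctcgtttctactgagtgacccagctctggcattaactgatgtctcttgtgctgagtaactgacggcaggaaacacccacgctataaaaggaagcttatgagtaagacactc
Cd300a: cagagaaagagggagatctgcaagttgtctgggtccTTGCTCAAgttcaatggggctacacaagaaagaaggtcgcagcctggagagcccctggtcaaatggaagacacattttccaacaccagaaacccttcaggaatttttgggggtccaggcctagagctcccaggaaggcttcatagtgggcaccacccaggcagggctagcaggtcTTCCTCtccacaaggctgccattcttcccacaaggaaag

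PU.1 and C/EBP factors drive myeloid gene expression, and Irf8 binds DNA together with PU.1 at composite elements. The window of Siglece held the PU.1 core at 3 places, 87, 36 and 11 bases before the start, all on the opposite strand. Those of Cd300a, Cd33 and Cd300lf held it at 1 place each, and those of Cd300lb and Cd22 at 0. Among all 32851 RefSeq windows of this length, 23.3% held it. The C/EBP core was in the window of Cd300a and in none of the other 5, against 9.56% of all windows. The ETS-IRF composite GGAANNGAAA and the interferon response element GAAANNGAAA, which can overlap each other and the PU.1 core, were in 0 of the 6 windows, against 2.3% and 2.98% of all windows. A match is only a description of these letters, and its part in the signals was not tested.

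Cd33, a Siglec of myeloid cells, read higher in Icsbp-deficient GMP on both array types by a smaller step. Its 430A signals were 185.8 for wild type and 242.0 for Icsbp-deficient GMP, and its MOE430_2 signals 62.3 and 158.3. The log2 ratios were 0.30 and 0.92, a mean of 0.61 ± 0.22 or 1.52-fold, which did not pass over all 13576 probe sets (limma adjusted p = 0.161). Leaving out single arrays, in a fit that cannot hold the array type, gave means from 0.06 to 1.15, the lowest without the wild type MOE430_2 array and the highest without the wild type 430A array.

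Cd300a, an inhibitory receptor for the lipids of dying cells, had nearly equal signals in both genotypes. Its shared probe set read 693.8 (wild type) and 701.5 (Icsbp-deficient) by 430A, and 450.6 and 423.7 on the MOE430_2 arrays. The mean log2 ratio was -0.02 ± 0.15 (limma adjusted p = 0.965). The second probe set, on the larger array only, read 11.8 and 11.7, both under the offset. On the MOE430_2 arrays the neighbouring genes Cd300a and Cd300lb thus had log2 ratios of -0.04 and 2.22, a difference without a replicate that was not tested.

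The other genes had low signal: their 6 shared probe sets lay under the 40th percentile of the mean over the 4 arrays and were not tested with the rest. Cd300lf, an inhibitory Cd300 receptor, read 57.9 (wild type) and 41.3 (Icsbp-deficient) by 430A, and 91.6 and 84.5 on the MOE430_2 arrays. Its log2 ratios of -0.22 and -0.01 were both slightly below 0.

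Cd22, the inhibitory Siglec of B cells, differed in opposite directions on the array types by its first probe set. The 430A signals were 117.8 for wild type and 140.3 for Icsbp-deficient GMP, and those on MOE430_2 were 53.9 and 21.4. The other probe set read between 5.99 and 23.6, under the offset on all 4 arrays. Of 9 B cell markers 4 were tested, and limma called 0 as higher and 0 as lower, with 2 at an unadjusted p under 0.05. Over all 7820 tested genes 3.26% were called higher and 2.34% lower. Of all 13576 tested probe sets 2522 had an unadjusted p under 0.05. The summed signal of the 8 measured markers was 1005 (wild type) and 1186 (Icsbp-deficient) by 430A, and 681.0 and 868.2 by MOE430_2, with no marker at 0. Its largest part was Cd79b, with 415.0 and 566.6 by 430A, and 426.3 and 493.0 by MOE430_2. Some markers lay under the offset, such as Cd79a on the MOE430_2 arrays (6.23 and 10.1).

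Siglec1, or sialoadhesin, is an adhesion receptor of tissue macrophages that lacks the inhibitory motif, and its 3 probe sets disagreed. The first read 56.7 (wild type) and 53.0 (Icsbp-deficient) by 430A, and 6.23 and 47.6 on the MOE430_2 arrays. In the same order, the second read 12.6, 8.38, 26.8 and 48.2. The third read 101.0, 175.9, 9.04 and 3.78. No probe set of Siglec1 moved the same way on both array types. Among macrophage markers, the complement genes C1qa and C1qc and the scavenger receptors Marco and Cd163 lay under the offset on all 4 arrays. C1qb (106.4 and 55.3, wild type first) and Cd5l (66.9 and 92.1) lay over it by 430A and under it by MOE430_2. Csf1r, the receptor for a monocyte growth factor, read between 2719.5 and 4258. Adgre1 read between 195.1 and 520.5, and Mrc1 between 52.0 and 143.9. Their mean log2 ratios were 0.74 ± 0.23 (limma adjusted p = 0.108) and 0.55 ± 0.22 (adjusted p = 0.222). Of 11 macrophage markers 5 were tested, 1 rose, 1 fell and 3 did not pass. Over all 7820 tested genes 3.26% were called higher and 2.34% lower. Cd68, an endosomal protein, rose by 1.03 ± 0.15 (limma adjusted p = 0.00402), and Vcam1, an adhesion molecule, fell by 1.11 ± 0.19 (adjusted p = 0.00943). The count of 2 was 1 with no filter or no intensity trend, and 0 with any 1 array left out. The markers' summed signal was 4369 and 4791 by 430A, and 5787 and 5966 by MOE430_2, wild type first, with none at 0. Its largest part was Csf1r, with 2719.5 and 2761 by 430A, and 4258 and 4195 by MOE430_2.

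In the filtered fit 3 of the 9 shared probe sets were tested: that of Siglece was past the threshold as higher, those of Cd33 and Cd300a were not past it, and 0 were past it as lower. Over all tested probe sets 2.99% were called higher and 2.14% lower. Since Siglece was chosen by this contrast, nothing is read from its count. With no filter, all 22626 shared probe sets were fitted, and the 6 low ones gave limma adjusted p from 0.575 to 0.884.

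**Figure D2:**
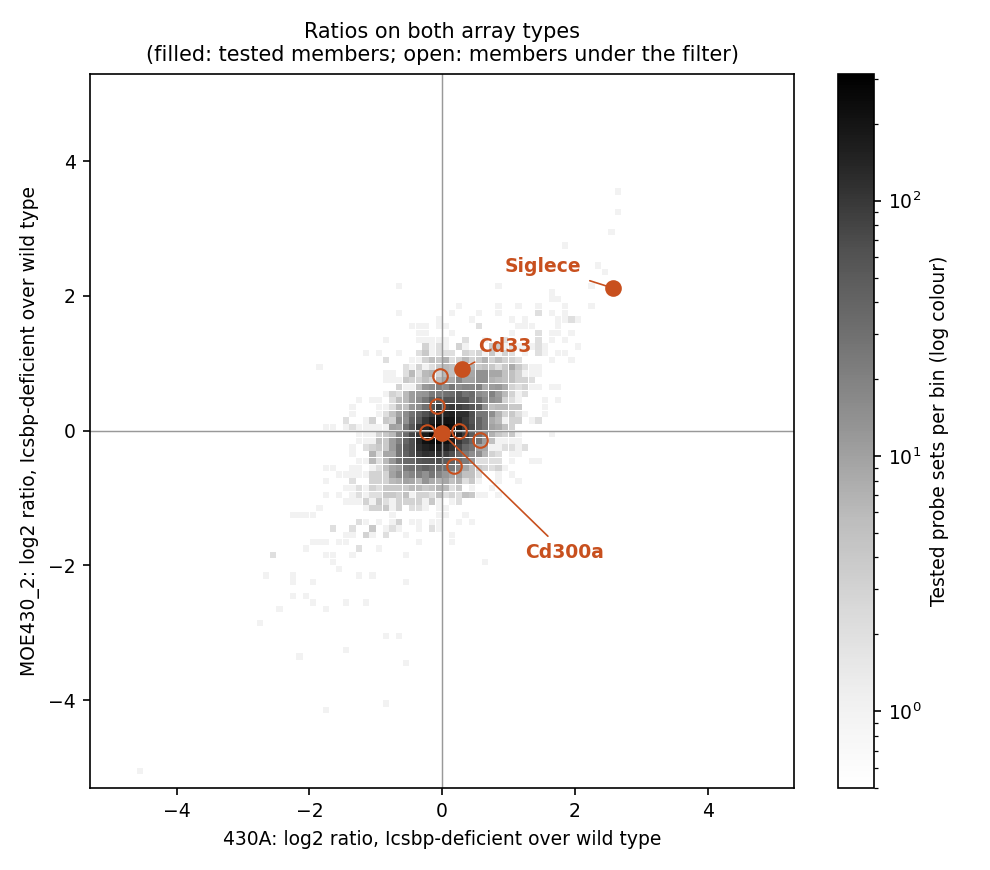
Log2 ratio of Icsbp-deficient over wild type on the MOE430_2 arrays against that on the 430A arrays; grey squares are bins of the 13576 tested probe sets, darker with more of them, and orange points are the 9 shared probe sets of the Siglec and Cd300 genes, open where they were under the filter. Siglece lies at 2.58 and 2.11 at the edge of the cloud, Cd33 at 0.30 and 0.92, and Cd300a near 0. Bins at MOE430_2 ratios of -5.45, -5.75 and -6.25, with 1 probe set each, lie outside the frame.

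**Figure D3:**
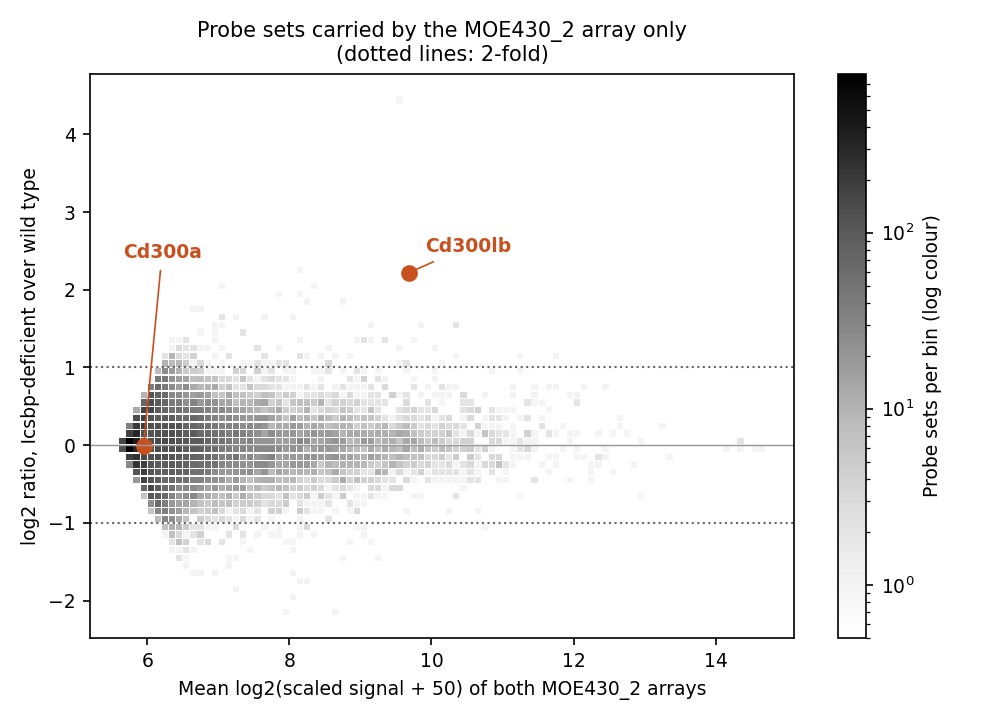
Log2 ratio of Icsbp-deficient over wild type against the mean log2(scaled signal + 50) for the 22411 probe sets on the MOE430_2 array only; grey squares are bins, darker with more probe sets, and dotted lines mark a 2-fold change. Cd300lb lies at a ratio of 2.22, and the second Cd300a probe set at -0.01 among the lowest signals.

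The genes whose pair of ratios lay nearest to that of Siglece were sought among 2091 genes with a mean log2 signal within 1 of it. They were Plagl1, an imprinted zinc finger factor, Rtp4, an interferon-induced receptor transporter, and Mapk13, a p38 kinase. Their distances over n = 2 array types were 0.428, 0.801 and 0.832 log2 units. Plagl1, the nearest, had ratios of 2.21 by 430A and 1.90 by MOE430_2. All 3 had lower ratios than Siglece on both array types.

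Of 10 other genes of these families, 4 were on both array types and 3 were tested. Limma called 0 as higher and 0 as lower, with 1 at an unadjusted p under 0.05. Of all 13576 tested probe sets 2522 had an unadjusted p that low. Siglecf, the Siglec of eosinophils, had a mean log2 ratio of 0.07 ± 0.16 (limma adjusted p = 0.854). Cd300c2 had 0.43 ± 0.18 (adjusted p = 0.246) and Cd300ld 0.47 ± 0.22 (adjusted p = 0.29), both with positive ratios on each array type. Siglecg, an inhibitory Siglec of B cells, was on the MOE430_2 array only and read 474.6 (wild type) and 821.2 (Icsbp-deficient), a log2 ratio of 0.75, under 2-fold. The tested genes of the list had a median ratio of 0.43, against -0.01 over all 7820 tested genes, of which 3.26% were called higher and 2.34% lower.

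Among the signalling partners of these receptors, the adaptor of Cd300lb rose. Tyrobp read 3218 (wild type) and 7241 (Icsbp-deficient) by 430A, and 5521 and 10289 on the MOE430_2 arrays. It was higher in Icsbp-deficient GMP on both array types, by 0.94 ± 0.11 (limma adjusted p = 0.00169). Fcer1g, an adaptor shared with Fc receptors, rose by 0.62 ± 0.13 (adjusted p = 0.0246). Of 17 adaptors, kinases and phosphatases 13 were tested, 2 rose, 0 fell and 11 did not pass, at a median of 0.24. The shares over all 7820 tested genes were 3.26% called higher and 2.34% lower. Ptpn6, the phosphatase recruited by inhibitory Siglec and Cd300 receptors, was at 0.43 ± 0.14 (adjusted p = 0.123), Ptpn11 at 0.08 ± 0.13 (adjusted p = 0.785) and Syk at 0.15 ± 0.13 (adjusted p = 0.628). Fitted without the array type as a block, 0 genes of this or any other list named here passed.

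Genes that make, transfer or remove sialic acids, the ligands of Siglecs, were called about as often as genes in general. Of 32 listed 18 were tested, 1 rose, 0 fell and 17 did not pass, against 3.26% higher and 2.34% lower over all tested genes, and the list's median was 0.00527. The lysosomal sialidase Neu1 rose by 0.64 ± 0.14 (limma adjusted p = 0.0291). The synthesis enzymes Gne, Nanp, Nans and Cmas were at -0.26, -0.33, -0.02 and 0.07, and none of them passed. St6gal1, which forms the linkage that Cd22 binds, was at 0.65 ± 0.21 (adjusted p = 0.123). The sialyltransferase St6galnac2, named after its values were seen, was under the filter, with 430A signals of 5.02 (wild type) and 152.9 (Icsbp-deficient), and MOE430_2 signals of 13.7 and 89.2.

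Among 17 other paired or inhibitory receptors 12 were tested, 3 rose, 1 fell and 8 did not pass, at a median of 0.41. The shares over all 7820 tested genes were 3.26% called higher and 2.34% lower. The lectin receptor Clec4a2 rose by 1.05 ± 0.14 (limma adjusted p = 0.00317), the adhesion receptor Ceacam1 by 0.96 ± 0.15 (adjusted p = 0.0058) and the Cd47 receptor Sirpa by 0.72 ± 0.14 (adjusted p = 0.0198). Clec4a2 had 2 tested probe sets, Ceacam1 7 and Sirpa 3, and only that of highest mean is given for each. Cd72, an inhibitory lectin best known on B cells, read 230.4 (wild type) and 33.8 (Icsbp-deficient) by 430A, and 188.9 and 71.2 on the MOE430_2 arrays. It fell by 1.34 ± 0.24 (adjusted p = 0.0136).

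**Figure D4:**
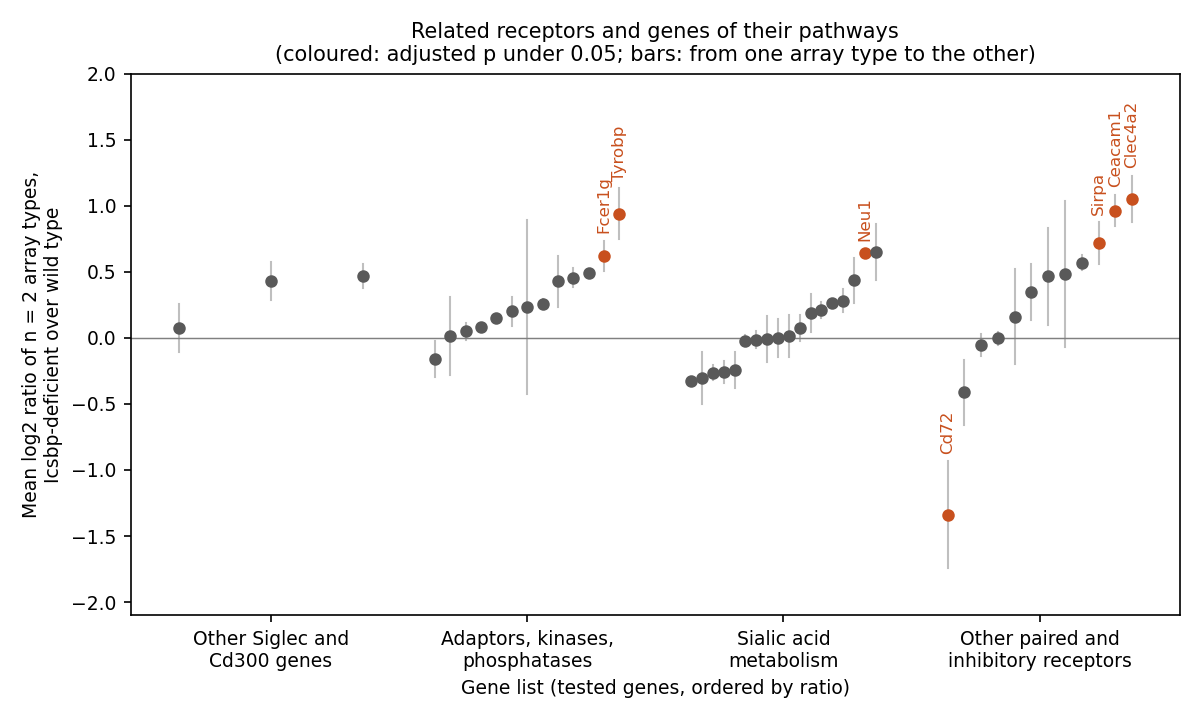
Mean log2 ratio over n = 2 array types for the tested genes of 4 lists, ordered by ratio within each list; each grey bar runs from the ratio on one array type to that on the other, and orange marks an adjusted p under 0.05. Tyrobp, Fcer1g, Neu1, Sirpa, Ceacam1 and Clec4a2 lie above 0, and Cd72 lies at -1.34.

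Most tested neutrophil markers, genes of a lineage known to carry Siglece, rose as well. Over all 7820 tested genes 3.26% were called higher and 2.34% lower. Of 11 neutrophil markers 10 were tested, 8 rose, 0 fell and 2 did not pass, at a median of 1.54. With each array left out in turn, 3 to 5 passed. The markers' summed signal was 10843 (wild type) and 29473 (Icsbp-deficient) by 430A, and 20063 and 55557 by MOE430_2, with none at 0. The sum follows the genes of highest signal. Of it S100a8 alone gave 5527 and 12322 by 430A, and 12105 and 25678 by MOE430_2. The 5 largest rises were those of Cd177, a surface protein, by 2.97 ± 0.19 (limma adjusted p = 4.05e-05), the granule genes Lcn2, Camp and Mmp8 by 2.34 ± 0.20, 2.22 ± 0.14 and 1.88 ± 0.18, and the calcium-binding S100a9 by 1.57 ± 0.10. The granule protease Mmp9 and the chemokine receptor Cxcr2 were at 0.29 ± 0.22 (adjusted p = 0.556) and 0.27 ± 0.25 (adjusted p = 0.628). All 7 GMP markers were tested, 1 rose, 1 fell and 5 did not pass. Those 5, Kit, Mpo, Elane, Prtn3 and Ctsg, were at 0.28, -0.02, 0.05, -0.02 and 0.01. Of the GMP markers Fcgr3 rose by 1.00 ± 0.11 (adjusted p = 0.000776) and Cd34 fell by 1.73 ± 0.13 (adjusted p = 0.000134), and this count of 2 was 1 with each array left out.

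Basophil and mast cell markers fell in 6 of 6 cases, against 2.34% of all 7820 tested genes called lower. Their summed signal was 5025 and 1752 by 430A, and 5674 and 2074 by MOE430_2, wild type first. Cpa3, a mast cell protease, fell by 2.81 ± 0.16 (limma adjusted p = 2.37e-05). The ratios of Fcer1a and Ms4a2, chains of the IgE receptor, were -1.99 ± 0.26 and -1.59 ± 0.25. That of the transcription factor Gata2 was -1.72 ± 0.17, and the histamine-forming enzyme Hdc fell by 1.00 ± 0.14. The count of 6 was 3 with a filter at the 60th percentile and 1 to 2 with each array left out. Prg2 and Epx, eosinophil granule protein genes, differed in size between the array types. The log2 ratios of Prg2 were -1.77 by 430A and -4.12 by MOE430_2, and those of Epx -0.56 and -3.43. Of 3 tested eosinophil markers Prg2 and Epx fell, at means of -2.94 ± 0.40 (limma adjusted p = 0.00311) and -1.99 ± 0.49 (adjusted p = 0.0462), and Siglecf did not pass. That count of 2 was 1 under an offset of 16, a floor of 50, the offset on deposited values, no filter, the 60th percentile filter or no trend, and 1 to 2 with each array left out. The 3 tested plasmacytoid dendritic cell markers did not pass. The part of these markers in the differences of Siglece, Cd300lb and Tyrobp was not tested, and in bulk RNA more cells of a type and more RNA per cell cannot be told apart.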

How the data were processed

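The deposited values are signal intensities, 1 per probe set on a linear scale, 22690 on each 430A and 45101 on each MOE430_2 array. The submitters' processing notes name GCOS for the MOE430_2 arrays. Its settings, the software behind the 430A signals and the scaling target of each array are not stated. Per the labels' protocols, labelling used an ENZO kit for the Icsbp-deficient 430A array and a one-cycle kit for both MOE430_2 arrays, with none named for the wild type 430A array. Each preparation was separate, per the series' design text.

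Without 64 control probe sets, 22626 were shared by both array types. Arrays were scaled over these to a common 2% trimmed mean (500), then log2(signal + 50) was quantile normalized within each array type. MOE430_2-only probe sets were treated likewise and have a ratio without a test. Probe sets under the 40th percentile of mean log2 signal were not tested. limma 3.58.1 (R 4.3.3) fitted genotype with array type as a block, with an intensity trend in the variance prior. Tests were two-sided, with p-values adjusted by Benjamini-Hochberg over all 13576 tested probe sets and a threshold of 0.05. The fit had 1 residual and 8.89 prior degrees of freedom, so its errors lean on the spread of other probe sets, and 4 arrays limit the precision. It was also run on simulated data whose spread was set by mean signal alone. That run does not check the fit for probe sets on which the array types disagree. The alternatives tried were other offsets, normalizations and filters, no trend, no block, and each array left out. A listed gene is represented by its tested probe set of highest mean. Except for Irf8, ratios of its further probe sets are not given.

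Symbols come from the platform annotation, updated through RefSeq. Named are all 7 genes, Irf8, Tyrobp, Ptpn6, from each list the genes that pass, up to the 5 largest each way, the 3 genes nearest to Siglece and further list genes as examples, the last chosen after their values were seen. The members and lists were chosen with earlier results of these data known.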

Additional observations from a re-analysis of the deposited data

How the results depend on the processing

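Over all probe sets 696 passed in the blocked fit. With the offset added to the values as deposited 397 passed, with no filter 266, with no intensity trend 267 and with no array type block 1. Leaving out each array gave 37 to 55, in a fit without the block, since the blocked one then has no residual degree of freedom. The lone array of a genotype is assumed there to vary like the other group. Of the Siglec and Cd300 probe sets 1 passed, that of Siglece. This count was 0 with a filter at the 60th percentile, where Siglece was not tested, 0 with no array type block, and 0 to 1 with each array left out, the 1 being without the Icsbp-deficient MOE430_2 array. The array type is also the replicate number, so the fit without the block is the unpaired one. Siglece, chosen for its rise in these arrays, had a positive mean ratio under all settings that gave one, from 1.62 to 3.26. With each array left out, in fits that do not hold the array type, the mean ratio of Siglece lay from 2.01 to 2.69. These values describe how its size depends on the settings and are no support for the rise. With each array left out, the mean ratio of Cd300a ran from -0.34 to 0.30. It was 0.28 without the wild type 430A array and 0.30 without the Icsbp-deficient MOE430_2 array. Those fits do not hold the array type, so the difference in level between the types enters their ratios. Within the types the ratios of Cd300a were 9.73e-05 by 430A and -0.04 by MOE430_2. Over the blocked settings 1 to 2 adaptor, kinase and phosphatase genes, 0 to 1 sialic acid genes and 2 to 4 other receptors passed, and 0 of each did without the block or with an array left out. Signals near or under the offset limit Cd22, Siglec1 and Cd300lf.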
